A study of Mus musculus with 16 samples.

Results

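T and natural killer (NK) lymphocytes were followed in dorsal root ganglia (DRGs) through 10 genes of their receptors, receptor signalling and killing machinery: Cd3e, Cd3g, Cd3d, Trbc2, Lck, Cd4, Cd8a, Nkg7, Gzma and Klrb1c. The 10 genes were taken by symbol from the 52636 genes counted in each library, and each symbol mapped to 1 Ensembl identifier. L3-6 DRGs came from male C57Bl6/J mice, 3 to 4 months old per the study's methods, with 1 mouse per library and 4 libraries in each of 4 groups. Sham-Saline and Sham-DMI mice had sham surgery, and SNI-Saline and SNI-DMI mice had tibial spared nerve injury (SNI), a partial nerve lesion used as a model of neuropathic pain. Starting 4 weeks after surgery, the DMI groups received desipramine (DMI), a tricyclic antidepressant that blocks noradrenaline reuptake, at 15 mg/kg intraperitoneally and with a pair of injections a day for 3 weeks, and the other groups received saline. All groups shared the strain and sex, so the labels separate them by surgery, injection and library number.

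T cells recognise antigen through a clonal receptor whose chains are paired with the invariant CD3 subunits, and the kinase Lck starts the signal from it. CD4 and CD8 are coreceptors that bind MHC class II and class I molecules, while NK cells use germline-encoded receptors and share granule proteins with cytotoxic T cells. In an uninjured ganglion these cells are sparse, and after nerve damage they are known to enter it together with macrophages.

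The CD3 genes Cd3g and Cd3d lie head to head on chromosome 9 with 1354 bases between them, and Cd3d and Cd3e are 11400 bases apart. Their upstream windows are shown because both start sites open on the same short interval, and the windows of Lck are shown because Lck was the most abundant of the 10 genes and has a pair of annotated start sites. Each window holds the 250 bases before a start in RefSeq, on GRCm38.p6 and in the direction of the gene. Capitals mark matches, on either strand, to the ETS core AGGAAG, the RUNX motif TGNGGT, the E-box CANCTG or the TATA box TATAAA, and no matches overlapped. The windows are chr9:44980432-44980681 (minus strand) for Cd3g, chr9:44981536-44981785 (plus strand) for Cd3d, and chr4:129573642-129573891 and chr4:129558373-129558622 (minus strand) for Lck.
Cd3g: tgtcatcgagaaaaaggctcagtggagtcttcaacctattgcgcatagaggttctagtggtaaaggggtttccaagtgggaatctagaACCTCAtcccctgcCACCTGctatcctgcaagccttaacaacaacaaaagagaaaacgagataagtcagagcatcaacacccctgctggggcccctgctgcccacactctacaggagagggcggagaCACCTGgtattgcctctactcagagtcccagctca
Cd3d: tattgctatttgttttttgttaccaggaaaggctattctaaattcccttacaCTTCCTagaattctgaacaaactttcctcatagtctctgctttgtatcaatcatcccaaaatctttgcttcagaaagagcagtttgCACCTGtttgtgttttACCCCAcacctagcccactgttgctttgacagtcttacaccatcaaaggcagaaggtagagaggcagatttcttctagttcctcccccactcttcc
Lck window 1: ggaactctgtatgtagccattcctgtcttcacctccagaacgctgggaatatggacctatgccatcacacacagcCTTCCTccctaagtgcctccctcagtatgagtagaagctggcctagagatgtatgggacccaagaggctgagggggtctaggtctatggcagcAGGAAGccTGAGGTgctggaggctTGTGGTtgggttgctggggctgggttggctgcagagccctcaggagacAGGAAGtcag
Lck window 2: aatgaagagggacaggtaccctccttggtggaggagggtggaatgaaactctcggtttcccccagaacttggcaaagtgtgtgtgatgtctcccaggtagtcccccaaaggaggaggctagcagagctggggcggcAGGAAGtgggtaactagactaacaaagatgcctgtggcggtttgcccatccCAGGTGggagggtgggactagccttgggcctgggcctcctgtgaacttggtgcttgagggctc
Cd3g held 1 RUNX and 2 E-box matches and no ETS match, and Cd3d held 1 match to each of these motifs. Lck window 1 held 3 ETS and 2 RUNX matches, and window 2 held 1 ETS and 1 E-box match. Of all 32851 upstream windows of the same length, 29.5% held the ETS letters, 40.1% the RUNX letters, 44.8% the E-box letters and 12.4% the TATA letters, so each of these matches was common. Windows were found for 8 of the 10 genes.

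The libraries held 41194238 to 73920332 reads on genes. Although the labels name both spinal cord and dorsal root ganglia, the sensory neuron genes Avil (824 to 1033 CPM), Prph (1436 to 1960 CPM) and Calca (721 to 968 CPM) were abundant in every library. In contrast, the spinal cord genes Olig2, Slc32a1 and Chat did not exceed 0.290, 0.596 and 0.0919 CPM. All 8 spinal cord genes followed summed to 10.4 to 18.9 CPM per library, so others of the 8 were higher. The 8 sensory neuron genes followed summed to 8608 to 11190 CPM. CPM denotes read counts normalised to library sizes scaled by TMM. At this depth 1 count is worth at most 0.025 CPM, yet the counts of the lymphocyte genes stayed low, between 182 and 561 reads per library over all 10 genes. Moreover, 4 libraries held over 10 CPM of skeletal muscle genes (Sham-Saline 1 with 31.8, SNI-Saline 2 with 52.2, SNI-Saline 4 with 10.3 and SNI-DMI 2 with 181 CPM), and the library numbers in the labels place all DMI libraries (17 to 24) apart from all saline libraries (33 to 40). Each group also holds its own run of consecutive numbers. Library order therefore cannot be told apart from drug, or from surgery within either treatment. In bulk RNA, fewer cells of a type and less RNA per cell cannot be told apart either.

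Per kilobase of exon, Lck was the most abundant of the 10 genes at 0.855 ± 0.114 RPKM (SD, n = 16 libraries). It was followed by Nkg7 (0.459 ± 0.251), Trbc2 (0.417 ± 0.334), Cd4 (0.248 ± 0.0924), Gzma (0.119 ± 0.0929) and Cd3d (0.0941 ± 0.0782). The lowest levels were those of Cd3g (0.0816 ± 0.0518), Cd3e (0.0796 ± 0.0337), Klrb1c (0.0497 ± 0.0253) and Cd8a (0.0411 ± 0.0368). The gaps between Lck and Nkg7 and between Cd4 and Gzma were larger than the SD of either gene, and every other pair of neighbours in this order lay within 1 SD of the more variable gene. The order over all 16 libraries did not hold in each group: in Sham-Saline Cd3d (0.0448 RPKM) lay below Cd3g (0.0553) and Cd3e (0.102), and in SNI-DMI Trbc2 (0.634) lay above Nkg7 (0.428). Lck alone made up 41.8% to 56.2% of the summed CPM of the 10 genes in the 4 groups, so a sum over them follows Lck more than any CD3 subunit.

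**Figure D1:**
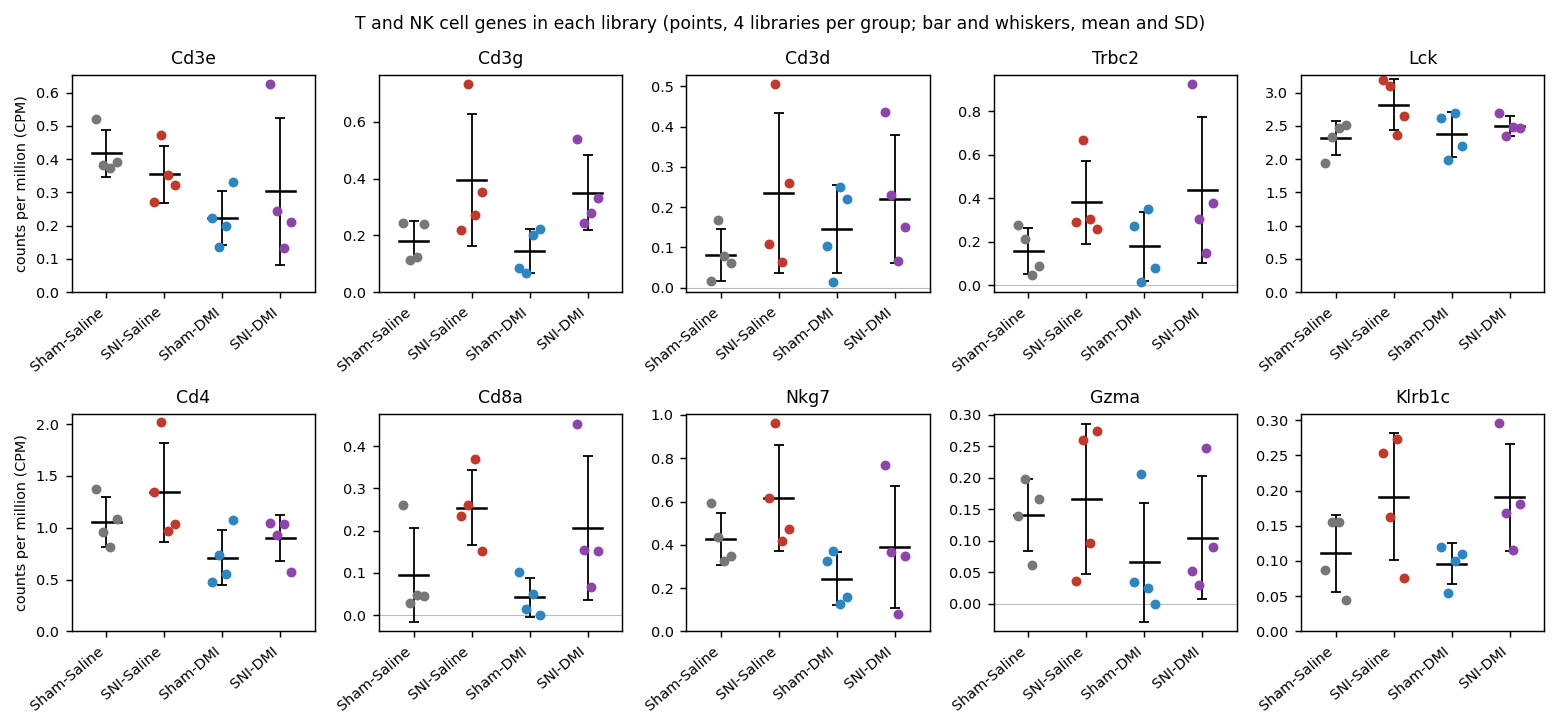
Level of each of the 10 T and NK cell genes in CPM (vertical axis, from library sizes scaled by TMM) in the 16 libraries (points), by group, with the mean (bar) and SD (whiskers) of 4 libraries. Most genes have a single high point in SNI-Saline (SNI-Saline 2) and in SNI-DMI (SNI-DMI 1), and Lck, on an axis up to about 3 CPM, varies least.

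The 3 CD3 subunits, which carry the signalling tails of the receptor complex, differed in the sign of some fitted changes. None of these changes passed in the main fit, and whether the subunits differed from each other was not tested. Cd3g (chromosome 9, 44969572 to 44980431, GRCm38) was counted at 14, 8, 8 and 16 reads in Sham-Saline libraries 1 to 4, at 12, 45, 17 and 23 in SNI-Saline, at 5, 5, 8 and 14 in Sham-DMI and at 31, 16, 17 and 22 in SNI-DMI. The mean level was 0.181 ± 0.0716 CPM in Sham-Saline and 0.394 ± 0.233 CPM in SNI-Saline (SD, n = 4 each), and 0.144 ± 0.0777 and 0.349 ± 0.132 CPM in Sham-DMI and SNI-DMI. All SNI-DMI libraries were above all Sham-DMI libraries, whereas SNI-Saline 1 fell within the Sham-Saline range. The fitted log2 fold change was 1.13 ± 0.449 (SE) for SNI-Saline versus Sham-Saline and 1.31 ± 0.474 for SNI-DMI versus Sham-DMI, with unadjusted p of 0.0215 and 0.0130 and adjusted p of 0.137 and 0.292 (edgeR). Without SNI-Saline 2 the first value was 0.66.

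Cd3d, the head-to-head neighbour of Cd3g, was counted at 1, 12, 5 and 4 reads in Sham-Saline, 6, 1, 10 and 14 in Sham-DMI, 6, 31, 4 and 17 in SNI-Saline and 25, 15, 4 and 10 in SNI-DMI. Each group spanned a range that overlapped the others, and within a group the libraries differed by far more than counting error, with a chi-square of 6.37 per degree of freedom. The log2 fold change was 1.47 ± 0.758 for SNI-Saline versus Sham-Saline (adjusted p = 0.257, edgeR), and it was 0.80 without SNI-Saline 2 and turned to -0.26 once the 4 libraries with muscle genes were left out.

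Cd3e had a negative value for SNI-Saline versus Sham-Saline, but its interval spanned 0 (-0.23 ± 0.381, 95% interval -1.03 to 0.573, adjusted p = 0.777, edgeR). These groups overlapped. It was counted at 30, 27, 24 and 26 reads in Sham-Saline, 13, 10, 8 and 21 in Sham-DMI, 15, 29, 22 and 21 in SNI-Saline and 36, 16, 8 and 14 in SNI-DMI. All 4 Sham-DMI libraries (0.137 to 0.331 CPM) lay below all 4 Sham-Saline libraries (0.374 to 0.522 CPM), and SNI-DMI spread from 0.132 to 0.627 CPM across both. The log2 fold change of Sham-DMI versus Sham-Saline was -0.90 ± 0.401 (95% interval -1.74 to -0.0547), with an unadjusted p of 0.0382 and an adjusted p of 0.138 (edgeR). The adjusted p ranged down to 0.0699 over the alternatives, and the gene passed the threshold without Sham-DMI 4 (-1.15) and without SNI-DMI 1 (-0.88). Cd3e overlaps an antisense gene and a gene of the same strand in the annotation, and how the counting used strand is not given in the sources used here.

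Trbc2, a constant region of the receptor beta chain, was counted at 16, 15, 3 and 6 reads in Sham-Saline, 16, 1, 14 and 5 in Sham-DMI, 16, 41, 19 and 17 in SNI-Saline and 53, 20, 9 and 25 in SNI-DMI. It was the most uneven of the 10 genes within groups, with a chi-square of 8.79 per degree of freedom, and SNI-Saline 2 and SNI-DMI 1 held its highest values. The log2 fold change was 1.28 ± 0.673 for SNI-Saline versus Sham-Saline and 1.39 ± 0.678 for SNI-DMI versus Sham-DMI (adjusted p = 0.266 and 0.428, edgeR). Without SNI-DMI 1 the second was 0.74. Trbc2 and Trbc1 are near-identical, so reads that fit both may be missing from either count and the level of Trbc2 is uncertain. Trbc1 gave 0.71 ± 0.523 and 1.13 ± 0.606 for the same comparisons (adjusted p = 0.449 and 0.471), and the alpha chain constant region Trac gave 0.30 ± 0.325 and 0.46 ± 0.324 (adjusted p = 0.629 and 0.59).

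Lck, the kinase that phosphorylates the CD3 tails, was counted at 112, 165, 158 and 167 reads in Sham-Saline, 153, 145, 108 and 139 in Sham-DMI, 176, 190, 147 and 173 in SNI-Saline and 155, 153, 151 and 164 in SNI-DMI. Its level was 2.32 ± 0.258 CPM in Sham-Saline, 2.37 ± 0.338 in Sham-DMI, 2.82 ± 0.389 in SNI-Saline and 2.5 ± 0.148 in SNI-DMI, and all of them overlapped. With the most reads of the 10 genes it also had the narrowest intervals: the log2 fold change was 0.28 (95% interval -0.000627 to 0.568, adjusted p = 0.218) for SNI-Saline versus Sham-Saline, and -0.17 (-0.457 to 0.110, adjusted p = 0.515) for SNI-DMI versus SNI-Saline (edgeR). The interval of Sham-DMI versus Sham-Saline (-0.258 to 0.316) thus limits a change in Lck far more tightly than that of Cd8a (-3.10 to 0.723).

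Of the coreceptors, Cd4 was counted at 79, 68, 52 and 72 reads in Sham-Saline, 28, 54, 22 and 68 in Sham-DMI, 74, 124, 60 and 68 in SNI-Saline and 60, 61, 63 and 38 in SNI-DMI. CD4 is carried by helper T cells and also by some cells of the monocyte lineage. Its level was 1.06 ± 0.239 CPM in Sham-Saline, 0.710 ± 0.266 in Sham-DMI, 1.34 ± 0.481 in SNI-Saline and 0.898 ± 0.223 in SNI-DMI, with overlap in every comparison. The log2 fold change with DMI was -0.58 ± 0.280 under SNI and -0.55 ± 0.288 under sham surgery, with adjusted p of 0.276 and 0.203 (edgeR). Neither passed, and the first was -0.30 without SNI-Saline 2.

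Cd8a, the coreceptor of cytotoxic T cells, was counted at 15, 2, 3 and 3 reads in Sham-Saline, 6, 1, 2 and 0 in Sham-DMI, 13, 16, 23 and 10 in SNI-Saline and 26, 10, 4 and 10 in SNI-DMI. Sham-Saline 1, with 0.261 CPM, stood apart from the other 3 libraries of its group (0.0282 to 0.0467 CPM) and those 3 lay below every SNI-Saline library. The log2 fold change was 1.46 ± 0.699 for SNI-Saline versus Sham-Saline (adjusted p = 0.222, edgeR) and 2.32 ± 0.83 for SNI-DMI versus Sham-DMI (unadjusted p = 0.0118, adjusted p = 0.284). Without Sham-Saline 1 the first became 2.62 and passed the threshold, and its adjusted p over all alternatives reached down to 0.0793. Without Sham-DMI 1 the second became 3.39 and passed as well. In Sham-DMI 4 no read was counted, which at a floor of 3 reads allows up to 0.0473 CPM, and this floor covers counting error only.

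Nkg7, a granule membrane protein of cytotoxic T and NK cells, was counted at 34, 31, 21 and 23 reads in Sham-Saline, 19, 27, 5 and 10 in Sham-DMI, 34, 59, 26 and 31 in SNI-Saline and 44, 24, 5 and 23 in SNI-DMI. The groups overlapped in each comparison, and its log2 fold change was 0.54 ± 0.450 with injury under saline, -0.66 ± 0.454 with DMI under SNI and -0.75 ± 0.484 with DMI under sham surgery (adjusted p = 0.519, 0.452 and 0.316, edgeR). The first was 0.25 without SNI-Saline 2, and the second was -0.35 without SNI-Saline 2, -0.31 without SNI-DMI 3 and -1.19 without SNI-DMI 1. Gzma, the granule protease granzyme A, was counted at 8, 14, 4 and 11 reads in Sham-Saline, 2, 15, 1 and 0 in Sham-DMI, 2, 16, 6 and 18 in SNI-Saline and 3, 2, 15 and 6 in SNI-DMI. A single library held most of the Sham-DMI reads, and without Sham-DMI 2 the log2 fold change of Sham-DMI versus Sham-Saline went from -0.94 ± 0.812 (adjusted p = 0.471) to -2.78 (adjusted p = 0.0579), past the threshold. Klrb1c, the NK1.1 receptor, was counted at 5, 11, 10 and 3 reads in Sham-Saline, 7, 4, 4 and 7 in Sham-DMI, 14, 10, 17 and 5 in SNI-Saline and 17, 11, 7 and 12 in SNI-DMI. Its log2 fold change was 0.76 ± 0.469 for SNI-Saline versus Sham-Saline and 0.98 ± 0.487 for SNI-DMI versus Sham-DMI (adjusted p = 0.353 and 0.435). Klrb1c overlaps another protein-coding gene on the same strand, which makes some of its reads ambiguous, so its level is uncertain.

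Across the 10 genes, none passed an adjusted p of 0.1 in any comparison (edgeR), although each of them entered the fit of 21371 genes. For SNI-Saline versus Sham-Saline, 12% of all tested genes passed. Cd3g alone met the unadjusted rule, a p under 0.05 together with a log2 change of 0.32 or more in size, as did 7.15% of all tested genes. Positive values were found for 9 of the 10 genes, and their median log2 fold change was 0.648, against -0.000604 for all tested genes. DESeq2 called 0 members as well, gave 2 of them (Cd3g and Lck) an unadjusted p under 0.05, and returned no adjusted p for 9 of them. No member separated the groups without overlap, which 15.4% of all tested genes did.

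For SNI-DMI versus SNI-Saline, where 2.93% of all tested genes passed, 9 of the 10 fold changes were negative and their median was -0.209, against -0.00470 over all genes. The smallest adjusted p was that of Cd4 (0.276, edgeR). With edgeR 0 members had an unadjusted p under 0.05, while 5.73% of all tested genes met the unadjusted rule, and with DESeq2 there was 1 such member, Cd4. No member separated the groups, as 13.3% of all tested genes did. Single libraries set several of these signs, since without SNI-Saline 2 Cd3g gave 0.32 and Cd3d gave 0.59, and without SNI-DMI 3 Cd3e gave 0.025. Cd3e gave -0.83 without SNI-DMI 1. The SNI-Saline libraries were also the injured group of the comparison with Sham-Saline. The negative values here and the positive ones there are therefore not independent.

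For Sham-DMI versus Sham-Saline, where 23.4% of all tested genes passed, 7 of the 10 fold changes were negative, with a median of -0.457 against -0.0210 over all genes. Cd3e was the only member that met the unadjusted rule, with either tool and as 11.5% of all tested genes did with edgeR, and the only one whose groups did not overlap. Lower levels without overlap were found in 8.51% of all tested genes. The Sham-Saline libraries also served as controls for the injury comparison, so the negative values here and the positive ones there are not independent.

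For SNI-DMI versus Sham-DMI, where 0.402% of all tested genes passed, all 10 fold changes were positive, from 0.08 for Lck to 2.32 for Cd8a, and their median was 0.637 against 0.000710 over all genes. Cd8a and Cd3g met the unadjusted rule with both edgeR and DESeq2 (5.41% of all tested genes did with edgeR), and Cd3g was the only member that was higher without overlap, as were 2.89% of all tested genes. Whether the drug effect differed between injured and sham-operated mice was tested as the difference between both DMI effects. None of the 10 genes, and 0 of all 21371, passed this test, the smallest adjusted p among the members was 0.783 (Cd3e, edgeR), and 0 members had an unadjusted p under 0.05 with edgeR or DESeq2, while 3.45% of all tested genes met the unadjusted rule. The intervals were wide, from -0.605 to 0.201 for Lck and from -1.44 to 3.18 for Cd8a on the log2 scale.

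**Figure D2:**
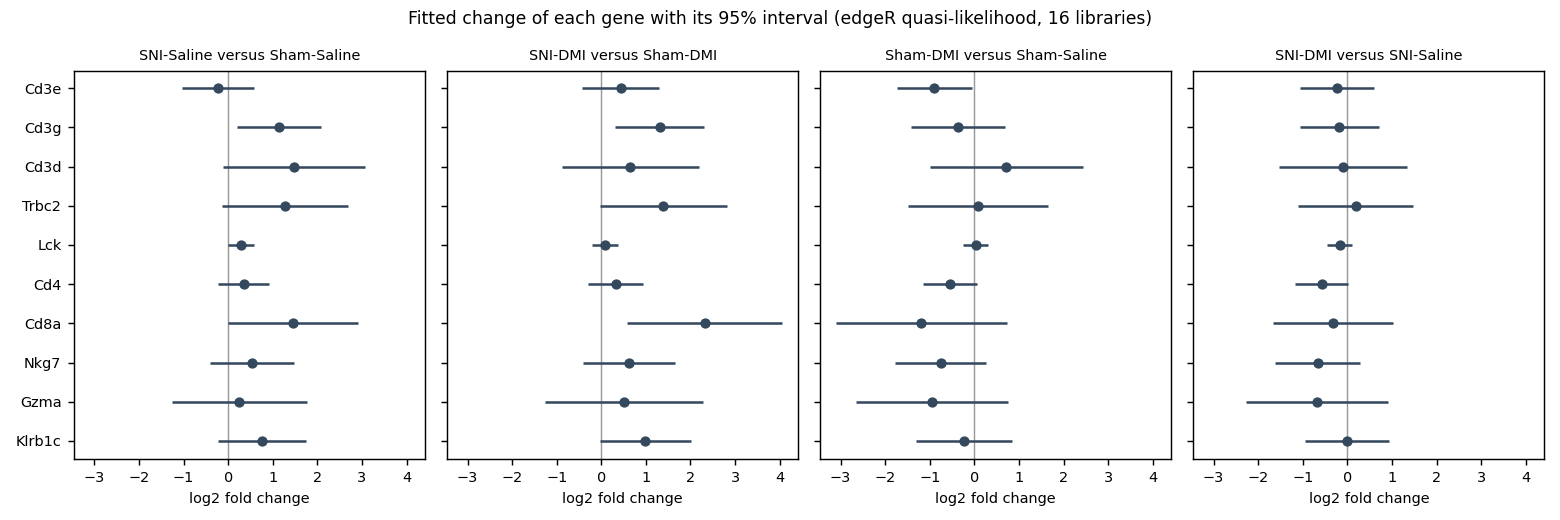
Fitted log2 fold change (horizontal axis) of each of the 10 genes with its 95% interval in 4 comparisons, from edgeR's quasi-likelihood fit of 16 libraries. Points lie mostly right of 0 in both injury comparisons and mostly left of 0 in both DMI comparisons, and Lck has the shortest interval in each panel. The comparisons share groups, so they are not independent.

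The 10 genes varied together only in part. SNI-Saline 2 and SNI-DMI 1 each held the highest CPM of 4 of the 10 genes, and Sham-DMI 2 held the lowest of 3. Each gene was set against the mean z score of the other 9 over the 16 libraries, a z score being log2 CPM centred and scaled by the SD of its gene. Pearson's r was highest for Cd3g (0.768), Trbc2 (0.756) and Cd8a (0.738) and lowest for Gzma (0.0328). After the group means were removed, r was 0.778 for Cd3e, 0.744 for Trbc2, 0.588 for Cd3g, 0.569 for Cd3d, 0.482 for Nkg7 and 0.439 for Cd8a. It was lower for Lck (0.250), Klrb1c (0.193), Cd4 (0.190) and Gzma (-0.388). These points share library depth and dissection, and the values are a description.

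**Figure D3:**
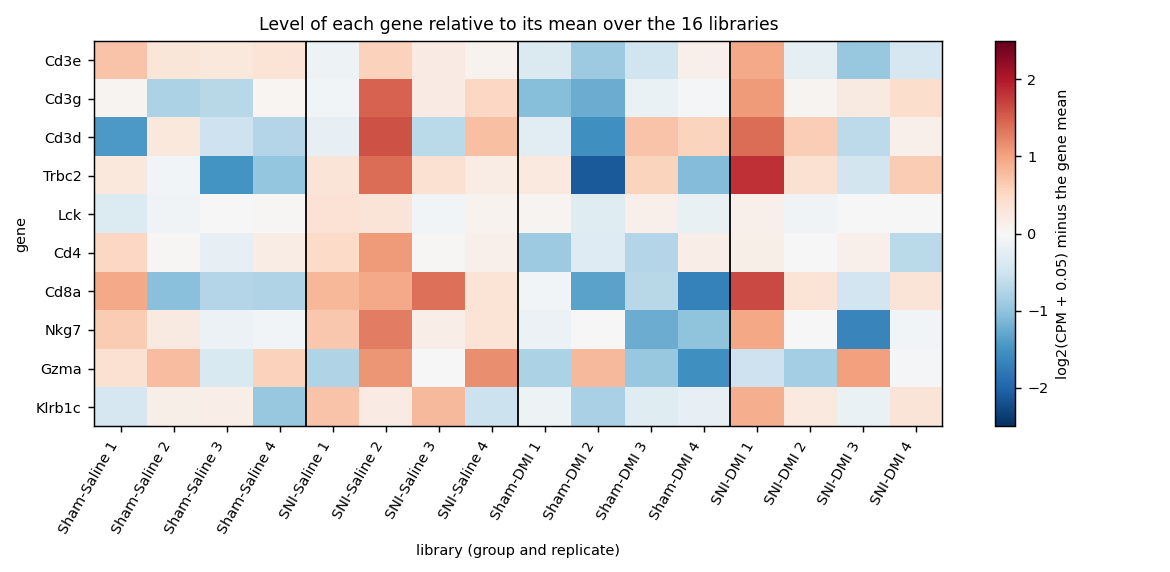
Level of each gene (rows) in each library (columns), as log2(CPM + 0.05) minus the mean of that gene over the 16 libraries, from blue (lower) to red (higher). The columns of SNI-Saline 2 and SNI-DMI 1 are red for most genes, Sham-DMI 2 is blue for most, and the row of Lck is nearly flat.

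The summed level of the 10 genes was 4.49 to 5.46 CPM in Sham-Saline, 3.61 to 4.55 in Sham-DMI, 5.48 to 9.14 in SNI-Saline and 4.67 to 7.84 in SNI-DMI. Both injured groups lay above their sham group without overlap, although the lowest SNI-Saline and the highest Sham-Saline library were close together. Without Lck and Cd4, the other 8 genes summed to 1.22 to 2.14 CPM in Sham-Saline, 0.878 to 1.30 in Sham-DMI, 2.03 to 4.02 in SNI-Saline and 1.14 to 4.10 in SNI-DMI, and both pairs of groups overlapped. The 12 macrophage genes measured 122 to 142 CPM in Sham-Saline, 95.1 to 133 in Sham-DMI, 156 to 281 in SNI-Saline and 124 to 248 in SNI-DMI, and their highest libraries were again SNI-Saline 2 and SNI-DMI 1. Of these 12 genes, 6 rose with injury under saline, where 12% of all tested genes passed in either direction. Among the 6 were Ctss (1.01, adjusted p = 0.0320), Cd68 (0.77, adjusted p = 0.0454) and C1qb (0.76, adjusted p = 0.0521, edgeR). Their part in the levels of the lymphocyte genes was not tested.

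The 10 neutrophil genes summed to 10.9 to 41.1 CPM in Sham-Saline and 16.4 to 52.3 in SNI-Saline, whereas the Sham-DMI range was 4.0 to 18.9 CPM and that of SNI-DMI was 4.61 to 14.3 CPM. Of them 7 fell in Sham-DMI versus Sham-Saline, where 11.9% of all tested genes fell and 23.4% passed in either direction. The 7 were led by Retnlg (-2.22, adjusted p = 0.00398), S100a8 (-1.84, adjusted p = 0.00834) and Mmp8 (-1.94, adjusted p = 0.0188, edgeR). In that comparison 5 of 8 tested B-lineage genes fell, among them Pax5 (-1.28, adjusted p = 0.00743) and Jchain (-1.31, adjusted p = 0.0144). Of the 6 pan-leukocyte genes, Ptprc (-0.87, adjusted p = 0.0177) and Cd53 (-0.69, adjusted p = 0.0353) fell and Coro1a (0.24, adjusted p = 0.0178) rose. Their part in the falls of lymphocyte genes given below was not tested.

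**Figure D4:**
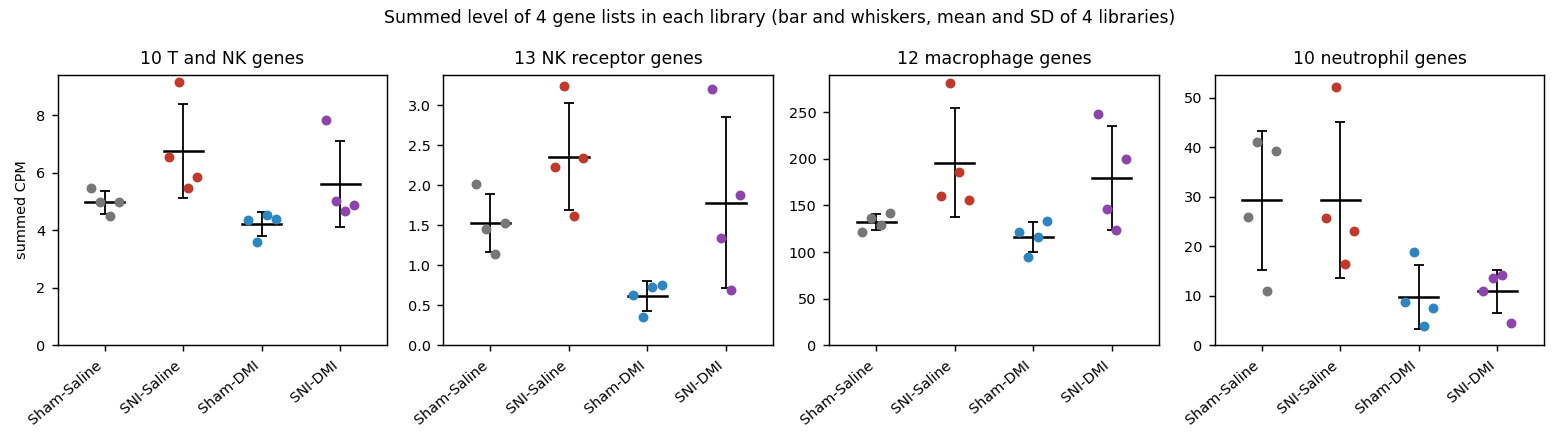
Summed CPM (vertical axis) of 4 gene lists in each library (points), with the mean (bar) and SD (whiskers) of 4 libraries. The T and NK genes and the macrophage genes are highest in SNI-Saline 2 and SNI-DMI 1, NK receptor genes have their lowest mean in Sham-DMI (0.357 to 0.757 CPM), and the neutrophil genes are low in both DMI groups.

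The mean z score of the 10 genes, in which each gene weighs the same, was also set against all other tested genes. Most alike over the 16 libraries were Lilr4b (r = 0.959), C3 (0.95), Cyp4f18 (0.944), Vav1 (0.942), H2-Aa (0.939), Cd52 (0.938), Mpeg1 (0.935), Rac2 (0.934), H2-Eb1 (0.931) and Lyz2 (0.930). None of them was in the T and NK lists, and Cd52 and Rac2 were in the pan-leukocyte list. With the group means removed, r was 0.840 to 0.929 for these genes. They were more abundant than most of the 10 genes, H2-Aa reaching a mean of 78.9 CPM and Lyz2 66.3 CPM.

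Reads on rearranging T cell receptor segments were sparse. Of 254 annotated variable, joining and constant segments with a row, 85 had a count in any library, and the total per library ran from 70 (Sham-DMI 4) to 259 reads (SNI-Saline 2). The mean over 4 libraries was 2.07 ± 0.191 CPM in Sham-Saline, 1.75 ± 0.508 in Sham-DMI, 2.84 ± 0.940 in SNI-Saline and 2.46 ± 0.499 in SNI-DMI. This total includes Trbc2. The variable segments alone measured 0.791 ± 0.208 CPM in Sham-Saline, 0.666 ± 0.200 in Sham-DMI, 0.869 ± 0.158 in SNI-Saline and 0.601 ± 0.111 in SNI-DMI. Variable segments had 719 reads in all, and Trbv6 held 49.0% of them. Its mean was 0.448 ± 0.129 CPM in Sham-Saline, 0.368 ± 0.0712 in Sham-DMI, 0.374 ± 0.145 in SNI-Saline and 0.241 ± 0.0955 in SNI-DMI, and differences between the groups were not tested. The alpha chain variable segments held only 7 reads over the 4 Sham-Saline libraries, 15 in Sham-DMI, 12 in SNI-Saline and 10 in SNI-DMI. Repertoires cannot be compared at this depth.

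Beyond the 10 genes, 100 other genes linked to T and NK cells were followed in 9 lists. Not all are particular to lymphocytes: they include chemokines that attract T cells and ligands of antigen-presenting cells. Thy1, Prkcq and Fyn had means of 913, 127 and 90 CPM over all libraries, far above the 10 genes. Shares over these lists are therefore not shares of lymphocyte genes alone. Of the 100, 70 had enough reads to be tested. Among those left out were Cd28, Ifng, Gzmb and Prf1, whose highest counts in a library were 2, 10, 10 and 14, and Il12rb1, which had no read. For SNI-Saline versus Sham-Saline, 9 of the 70 (12.9%) passed an adjusted p of 0.1, close to the 12% of all tested genes, and the median log2 fold change was 0.271 against -0.000604.

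Chemokines that attract T cells were among the genes that rose. Cxcl10, a ligand of CXCR3 induced by interferon, measured 2.17 to 4.09 CPM in Sham-Saline and 5.48 to 25.7 CPM in SNI-Saline without overlap, a log2 fold change of 1.99 ± 0.468 (adjusted p = 0.025, edgeR). Cxcl9, a ligand of the same receptor, rose by 2.14 ± 0.755 (adjusted p = 0.0956) with overlap, and Cxcl16 rose by 0.48 ± 0.167 (adjusted p = 0.0936). Cxcr6, the receptor of CXCL16 on effector T cells, measured 0.242 to 0.435 CPM in Sham-Saline and 0.458 to 1.22 CPM in SNI-Saline without overlap and rose by 1.25 ± 0.341 (adjusted p = 0.0418).

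The constant region of the delta chain of gamma-delta T cells, Trdc, rose by 1.37 ± 0.451 (adjusted p = 0.0783), from 4 to 9 reads per library in Sham-Saline to 19, 20, 5 and 18 reads in SNI-Saline. SNI-Saline 3 stayed within the Sham-Saline range. The costimulatory ligand Cd86 of antigen-presenting cells rose by 0.83 ± 0.226 (adjusted p = 0.0426), the interferon-gamma receptor Ifngr1 by 0.16 ± 0.0534 (adjusted p = 0.0843) and Thy1, which neurons also express at high levels, by 0.24 ± 0.0613 (adjusted p = 0.0339). The death ligand Fasl fell by 1.51 on the log2 scale (adjusted p = 0.09), from 0.202 ± 0.0748 CPM in Sham-Saline to 0.0714 ± 0.0421 CPM in SNI-Saline. No gene of the signalling, transcription factor or NK receptor lists passed, and the smallest p in each belonged to Skap1 (0.64, adjusted p = 0.184), Id2 (0.19, adjusted p = 0.229) and Klrb1b (1.01, adjusted p = 0.241). Next in these lists were Fyn (0.11), Bcl11b (-0.18) and Klrk1 (0.65). The number of calls changed with the libraries: it was 5 without Sham-Saline 1 or SNI-Saline 4, 4 without Sham-Saline 2, 1 without Sham-Saline 3, 3 without Sham-Saline 4, 2 without SNI-Saline 1 or SNI-Saline 2, and 0 without the 4 libraries with muscle genes (edgeR). The share of all tested genes called also fell in most of these fits, from 12% to 5.79% without Sham-Saline 1, 3.15% without Sham-Saline 3, 5.62% without Sham-Saline 4, 3.45% and 3.55% without SNI-Saline 1 and 2, 7.46% without SNI-Saline 4 and 0.2% without the muscle libraries, but was 12.2% without Sham-Saline 2.

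DMI in sham-operated mice gave the largest number of calls. Of the 70 other genes, 12 fell and 2 rose (20%, against 23.4% of all tested genes, of which 11.9% fell and 11.6% rose), and 14 of the 70 were lower without overlap, a pattern found in 8.51% of all tested genes. The NK receptor Klrd1, the CD94 chain, had 17, 13, 5 and 11 reads in Sham-Saline and 1, 1, 2 and 2 in Sham-DMI, and its log2 fold change was -2.70 ± 0.678 (adjusted p = 0.0125, edgeR). Klrk1, the activating receptor NKG2D, was counted at 46, 32, 26 and 38 reads in Sham-Saline and 11, 8, 6 and 15 in Sham-DMI, with no overlap (-1.69 ± 0.537, adjusted p = 0.039). The summed level of all 13 NK receptor genes was 1.14 to 2.02 CPM in Sham-Saline and 0.357 to 0.757 CPM in Sham-DMI, but only 5 of the 13 had enough reads to be tested, and all 5 had negative fold changes.

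The inhibitory receptor Btla, found on both B and T cells, went from 0.760 ± 0.224 to 0.250 ± 0.101 CPM (log2 fold change -1.55 ± 0.341, adjusted p = 0.00637), and the costimulatory ligand Cd80 fell as well (-1.58 ± 0.456, adjusted p = 0.0252). Of the effectors, the death ligands Tnfsf10 (-1.0 ± 0.237, adjusted p = 0.00933) and Fasl (-1.36 ± 0.513, adjusted p = 0.0794) fell, while granzyme M (Gzmm) rose by 0.77 ± 0.298 (adjusted p = 0.0857). The interleukin-18 receptor subunit Il18rap (-1.34 ± 0.399, adjusted p = 0.0287), the homing receptors Cxcr6 (-0.99, adjusted p = 0.0938) and Ccr2 (-0.52, adjusted p = 0.0493), the T cell transcription factor Tcf7 (-0.43, adjusted p = 0.0491) and the chemokine Cxcl11 (-0.45, adjusted p = 0.0847) fell. Thy1 rose by 0.31 ± 0.0613 (adjusted p = 0.00395). Without Sham-Saline 1 the number of calls was 7, while 20% of all tested genes were called. The receptor signalling list had no call, and its lowest p belonged to Cd226 (-1.72, adjusted p = 0.142) and Txk (-0.71, adjusted p = 0.195).

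**Figure D5:**
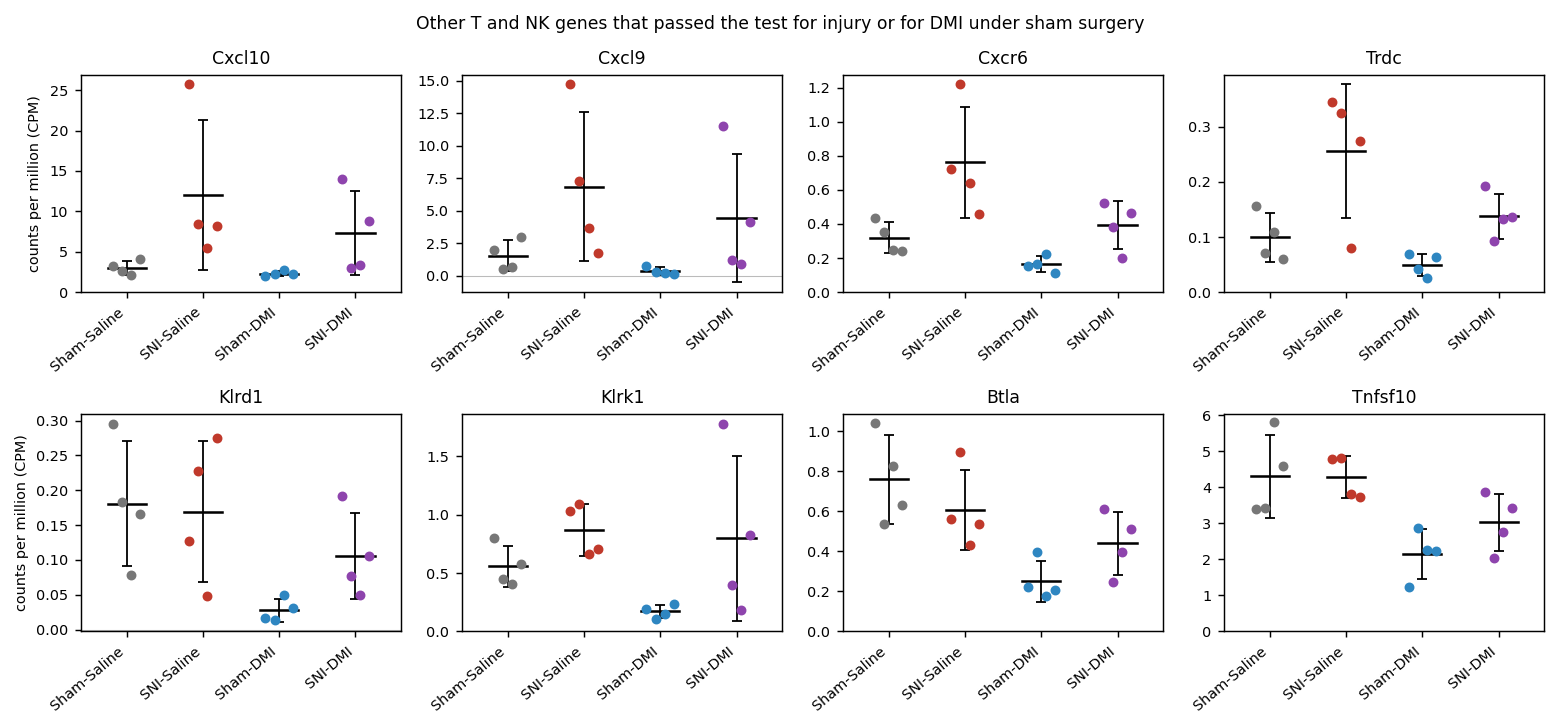
Level in CPM (vertical axis) of 8 other genes of the T and NK lists, by library (points) and group, with mean (bar) and SD (whiskers) of 4 libraries. They passed the test for injury under saline (Cxcl10, Cxcl9, Cxcr6, Trdc) or for DMI under sham surgery (Cxcr6, Klrd1, Klrk1, Btla, Tnfsf10). Sham-DMI has the lowest mean for Klrk1 (0.171 CPM) and Btla (0.250 CPM), with some SNI-DMI libraries in its range, and single libraries of SNI-Saline and SNI-DMI are highest for the chemokines.

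For SNI-DMI versus SNI-Saline, 1 of the 70 passed (1.43%, against 2.93% of all tested genes). The median log2 value of the 70 was -0.173, and the SNI-Saline libraries were shared with the injury comparison under saline. Ccr2, a chemokine receptor of monocytes and of activated T cells, measured 5.53 ± 1.47 CPM in SNI-Saline and 3.57 ± 0.764 CPM in SNI-DMI with overlap, and fell by 0.63 on the log2 scale (adjusted p = 0.0904, edgeR). The call was lost when any SNI-Saline library, SNI-DMI 1, 2 or 3, Sham-DMI 3 or Sham-Saline 2, 3 or 4 was left out. Of all tested genes, 0 were called without SNI-Saline 1 or 3 or without SNI-DMI 1, 2 or 3, 0.175% without SNI-Saline 4, 1.04% to 2.12% without Sham-Saline 2, 3 or 4, 1.43% without Sham-DMI 3 and 4.53% without SNI-Saline 2. Of the lists without a call, the values with the smallest p were Trdc (-0.89, adjusted p = 0.281), Thy1 (0.11), Ubash3a (-0.94), Txk (-0.42), the regulatory T cell factor Foxp3 (-1.04, adjusted p = 0.212), Id2 (-0.15), Klrd1 (-0.69), Cd244a (-0.51), Tnfsf10 (-0.50), Xcl1 (-1.29), Cd274 (-0.43), Cd86 (-0.46), Cxcl10 (-0.71), Cxcl11 (-0.18), Il18rap (-0.97, adjusted p = 0.178) and Il18r1 (-0.55). None of these passed.

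For SNI-DMI versus Sham-DMI, 0 of the 70 passed with edgeR, while 21 met the unadjusted rule, all of them with higher levels in SNI-DMI, and DESeq2 called 7. Of all tested genes, 4.07% were higher by this rule. Leaving out 1 library gave 6 calls without SNI-DMI 3, 4 without SNI-DMI 2, 3 without Sham-DMI 1 and 1 without Sham-DMI 4, Sham-Saline 1, SNI-Saline 1 or SNI-Saline 2. The share of all tested genes called was 1.08%, 0.955% and 3.91% in the first 3 of these fits and 0.405% to 0.654% in the others. Klrk1 came nearest, with 11, 8, 6 and 15 reads in Sham-DMI and 102, 26, 11 and 55 in SNI-DMI (log2 fold change 2.20 ± 0.528, adjusted p = 0.118). SNI-DMI 3 overlapped Sham-DMI. Next were Cxcl9 (3.59, adjusted p = 0.127), the interleukin-2 receptor subunit Il2rb (1.85, adjusted p = 0.133) and Cx3cr1 (0.64, adjusted p = 0.138). The remaining values were Trdc (1.4), Cd2 (0.77), Txk (0.76), Prkcq (-0.13), Tcf7 (0.46), Runx3 (-0.16), the NK receptor Ncr1 (2.21), Ccl5 (1.14), Tnfsf10 (0.49), Havcr2 (1.05), Lag3 (0.64), Cxcr6 (1.29), Cxcl16 (0.62) and Il21r (0.97), with adjusted p between 0.157 and 0.634.

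The difference between both DMI effects was not called for any of the 70 genes with edgeR or DESeq2. With edgeR, 6 met the unadjusted rule, all with positive values, where 2.24% of all tested genes did. Fasl had the smallest p, with a difference of 2.5 ± 0.742 on the log2 scale (adjusted p = 0.619): its level was 0.202 ± 0.0748 CPM in Sham-Saline, 0.0722 ± 0.0575 in Sham-DMI, 0.0714 ± 0.0421 in SNI-Saline and 0.158 ± 0.0592 in SNI-DMI. Klrd1 (2.01), Klrk1 (1.55), Cd80 (1.47), Btla (1.09) and Tcf7 (0.50) shared the adjusted p of 0.619. The other values with the smallest p in their lists went both ways, with adjusted p between 0.619 and 0.818. Negative were Thy1 (-0.20), Cd7 (-0.63), Lcp2 (-0.34), Skap1 (-0.50), Gzmm (-0.80) and Ifngr1 (-0.075). Positive were Bcl11b (0.24), S1pr1 (0.29), Cx3cr1 (0.31), Cxcl9 (1.45), Cxcl11 (0.28) and Il2rb (1.02). Of the 70 differences, 41 were positive and 29 negative.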

How the data were processed

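Gene expression was measured by bulk RNA-seq of L3-6 DRGs with a stranded mRNA kit in 16 libraries, 4 in each of 4 groups. The authors deposited raw read counts per gene, in 1 table for each library, and per the submitters' processing notes HISAT2, HTSeq and DESeq2 were used with mm10. How strand was used, the release of the annotation and the versions of HISAT2 and HTSeq are not given in the sources used here, and the study gives both 4 weeks and 4 months for the start of treatment. The 5 lines of unassigned reads in each table were left out (79.56% to 81.17% of reads lay on genes).

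From the counts, edgeR 4.0.16 (R 4.3.3) was fitted to all 16 libraries with TMM scaling, 1 coefficient per group and the quasi-likelihood test on 21371 genes kept by filterByExpr, of 38220 with at least 1 count. Adjusted p (Benjamini-Hochberg, over all tested genes) under 0.1 was the threshold, and p-values reflect the spread between these libraries. GENCODE M21 on GRCm38 gave names, positions and exon lengths for 52489 of 52636 identifiers, and upstream windows came from RefSeq on GRCm38.p6. The members and lists were chosen with earlier results of these data known. Besides the 10 members, the text names the other genes of the T and NK lists that passed. In each list without a call, it names the 2 with the smallest p. A gene that passed among them is not reported here by name. Sums, CPM, RPKM and correlations were computed with pandas 2.3.3 and numpy 2.4.6 in Python 3.11.15, and figures with matplotlib 3.10.9.

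Alternatives were RLE and upper-quartile scaling, no filter, at least 10 counts in every library, DESeq2 1.42.0, a replicate block, removal of GC content and exon length trends (mgcv 1.9.3), 1 surrogate variable (sva 3.50.0), each library left out in turn and, chosen after seeing the data, omission of 4 libraries with over 10 CPM of the muscle genes Acta1, Ckm, Myh4 and Myh1. The main edgeR fit was tested before use on simulated data with known changes, for SNI-Saline versus Sham-Saline only. The alternatives were not tested in this way.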

Additional observations from a re-analysis of the deposited data

Results flagged for a closer look

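Within groups of 4 libraries, a single library stood far from the other 3 in 4 of the 40 combinations of gene and group, by Dixon's criterion. Chance marks about 1 in 20 such groups. Cd3e measured 0.522 CPM in Sham-Saline 1 and 0.374 to 0.393 CPM in the other Sham-Saline libraries, and in that same library Cd8a measured 0.261 CPM against 0.0282 to 0.0467 CPM. Trbc2 reached 0.668 CPM in SNI-Saline 2, whereas the others of that group lay between 0.260 and 0.305 CPM. Gzma reached 0.206 CPM in Sham-DMI 2 and 0 to 0.0342 CPM in the rest of its group. Sham-Saline 1 and SNI-Saline 2 were also among the 4 libraries with over 10 CPM of skeletal muscle genes, and the part of this tissue in the levels was not tested.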

How the results depend on the processing

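Of 1210 fold changes of the 10 genes recomputed under alternatives, 1127 kept their direction and side of the threshold, 76 reversed (56 of them on leaving out 1 library) and 7 passed only there. The cause was not tested for any of them. None of the 10 genes was called to begin with, so a kept side of the threshold is no sign of stability. With at least 10 counts in every library, 18011 genes remained and only Cd4 and Lck were left of the members. DESeq2 gave no adjusted p for 9, 9, 5, 8 and 0 members in the 5 comparisons as ordered here.

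For SNI-Saline versus Sham-Saline, 9 of the other genes of the T and NK lists passed. With at least 10 counts in every library 5 did, 3 after removal of GC content and exon length trends, and 0 without the 4 libraries with muscle genes. Of all tested genes 12% passed, and 15.4%, 3.94% and 0.2% under these alternatives. Without these libraries Cd3d gave -0.26 and Gzma -1.06. Leaving out 1 library gave 0 to 1 called members and 1 to 9 called other genes, while 3.15% to 15.1% of all tested genes were called. It gave -0.097 to 0.58 for Gzma.

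For SNI-DMI versus SNI-Saline, the 1 call became 0 with the replicate block, with the trends removed and without the muscle libraries, where the share of all tested genes called went from 2.93% to 0.805%, 0.0281% and 0.00455%. Klrb1c, at -0.0058, gave 0.0021 with no filter, 0.046 with the block, 0.047 with the trends removed and 0.023 with 1 surrogate variable. Without the muscle libraries Cd3e gave 0.031, Cd3g 0.63, Cd3d 1.31 and Gzma 0.93. Leaving out 1 library gave 0 called members and 0 to 1 called other genes, while 0% to 8.48% of all tested genes were called. It gave -0.83 to 0.025 for Cd3e, -0.45 to 0.32 for Cd3g, -0.64 to 0.59 for Cd3d, -0.44 to 0.63 for Trbc2 and -0.28 to 0.22 for Klrb1c.

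For Sham-DMI versus Sham-Saline, 14 calls became 7 with at least 10 counts in every library, 7 with the trends removed and 9 without the muscle libraries, and the share over all tested genes from 23.4% to 28.5%, 18.8% and 16.8%. Lck gave -0.000324 and Trbc2 -0.012 with the trends removed, and Lck gave -0.044 without the muscle libraries. Leaving out 1 library gave 0 to 2 called members and 7 to 15 called other genes, while 15.2% to 28.1% of all tested genes were called. It gave -0.027 to 0.13 for Lck, -0.39 to 0.55 for Trbc2 and -0.49 to 0.0073 for Klrb1c. The 2 members were Cd3e (-1.15) and Cd4 (-0.81), both without Sham-DMI 4. In that fit 19.4% of all tested genes were called, close to the share of 2 in 10 members.

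For SNI-DMI versus Sham-DMI, 0 calls became 6 with no filter, 7 with DESeq2, 2 with the block, 2 with the trends removed, 3 with 1 surrogate variable and 5 without the muscle libraries, and Lck gave -0.018 with the trends removed. The share over all tested genes was 0.402%, and 0.811%, 2.42%, 0.328%, 1.08%, 0.707% and 0.997% under these alternatives. Leaving out 1 library gave 0 to 1 called members and 0 to 6 called other genes, while 0.0784% to 3.91% of all tested genes were called. It gave -0.17 to 0.69 for Cd3e and -0.31 to 2.37 for Gzma.

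For the difference between both DMI effects, Cd4 gave 0.0081 and Trbc2 -0.087 with the block. Without the muscle libraries Cd3d gave 0.89, Cd8a -0.43, Cd4 0.023 and Klrb1c -0.10. Leaving out 1 library gave 0 calls, -0.11 to 0.66 for Cd3g, -0.29 to 1.93 for Cd8a, -0.20 to 0.24 for Cd4, -0.55 to 0.60 for Trbc2, -0.46 to 0.42 for Nkg7, -0.57 to 2.11 for Gzma and -0.063 to 0.48 for Klrb1c.

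The replicate numbers gave little sign of pairing. Over 24 pairs with the same number in different groups, deviations from the group means correlated between -0.0813 and 0.184. The median was 5e-06, against 0.00138 for pairs with other numbers. Of 16 libraries, 7 correlated best with their own number, and how many would do so by chance was not worked out. With the replicate block 1 of the 10 members, Cd8a, was called for SNI-Saline versus Sham-Saline (1.77, adjusted p = 0.0947, edgeR). In that fit 9.85% of all tested genes were called, close to this share. Depth limits the precision: Gzma and Klrb1c had fewer than 20 reads in all 16 libraries, Cd3d and Cd8a in 14, and Cd3g and Trbc2 in 12.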
